A study of Mus musculus with 12 samples.

Results

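Mitochondrial ribosomal proteins were followed at the mRNA level in mouse livers that lacked Atg7 in hepatocytes, with or without a p62 mutation. The genes were taken by symbol alone, as every row named Mrpl or Mrps followed by a number. This gave 77 of the 24411 genes in the table, 48 of the large subunit (Mrpl) and 29 of the small subunit (Mrps), on 17 chromosomes. All 77 were abundant enough to be tested, as were 13922 genes in all.

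The mitochondrial ribosome translates the few mRNAs of the mitochondrial genome, which encode core subunits of the respiratory chain and of ATP synthase. Its ribosomal RNAs are transcribed inside the mitochondrion, whereas its proteins are encoded in the nucleus, made in the cytosol and imported. The large subunit forms the peptide bond, and the small subunit holds the mRNA and decodes it.

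The study asked how binding of KEAP1 to p62 bodies, the deposits of the autophagy receptor p62 that build up when autophagy is blocked, bears on the NRF2 pathway. Poly(A) RNA of whole liver was sequenced from 3 mice of each genotype at 3 months of age. Control (cont.) mice carried 2 floxed Atg7 alleles and no Cre. Atg7-KO mice carried in addition Alb-Cre, a recombinase transgene under the albumin promoter that acts in hepatocytes. Atg7 in other liver cells was not measured separately. Atg7-KO;p62T352A mice were of the same Atg7flox/flox;Alb-Cre genotype and homozygous for a knock-in of T352A in the part of p62 that binds KEAP1, which every cell carries. Livers of Atg7flox/flox mice with the knock-in and no Cre were not analysed here.

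Libraries held 9671080 to 23285132 counts, and a single gene of the family had between 67 and 3463 counts in a mouse. Values below are normalized CPM, counts divided by library size and scaled with TMM, a method that sets the bulk of genes level between libraries. Its factors were 1.28 to 1.32 in the Atg7-KO mice and 0.75 to 0.95 in the others, while the 20 most abundant genes held 16.4 to 17.0% of the counts in Atg7-KO mice and 21.1 to 31.2% in the others. A gene was called higher or lower at a Benjamini-Hochberg FDR under 0.05 over all tested genes and a fold change over 1.5, from edgeR's quasi-likelihood test.

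Atg7 itself was at 46.4, 44.2 and 55.4 normalized CPM in cont. mice, at 10.1, 9.57 and 12.0 in Atg7-KO mice and at 29.7, 27.4 and 29.5 in Atg7-KO;p62T352A mice. It was called lower than in cont. mice in both Atg7-KO groups (log2 fold change -2.20 ± 0.17 (SE), FDR 2.55e-05, and -0.75 ± 0.16, FDR 0.0206), and it was called higher in Atg7-KO;p62T352A than in Atg7-KO mice (1.45 ± 0.17, FDR 0.000164). The reads cover the whole gene, exons outside the floxed part included. In the second comparison below, effects of p62 and of the remaining Atg7 mRNA cannot be told apart.

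Markers of liver cell types also moved with genotype. Summed over 8 hepatocyte markers, normalized CPM ran from 78441 to 134609 in cont. mice, 37352 to 39822 in Atg7-KO mice and 116562 to 134576 in Atg7-KO;p62T352A mice. Atg7-KO mice had the highest sums of 8 macrophage (569 to 617, against 225 to 269 in cont. and 165 to 307 in Atg7-KO;p62T352A mice), 8 stellate (970 to 1162, against 255 to 314 and 381 to 665), 7 cholangiocyte (849 to 1046, against 66.9 to 70.1 and 205 to 290) and 6 lymphocyte markers (59.9 to 66.5, against 14 to 26.2 and 20.7 to 23.3). The sum of 8 endothelial markers was 350 to 385, 345 to 359 and 172 to 210 in cont., Atg7-KO and Atg7-KO;p62T352A mice. Within 2 lists single markers moved apart. Against cont., Atg7-KO livers had 5 macrophage markers up and 1 down by the calls defined above. They had 3 endothelial markers up (Lyve1 at a log2 fold change of 1.57) and 1 down (Stab2 at -1.19). From Atg7-KO to Atg7-KO;p62T352A mice, 5 macrophage markers fell and 2 rose. In these 2 comparisons, every call in the hepatocyte, stellate, cholangiocyte and lymphocyte lists went the way of the sum. No marker in the table was at 0 in a whole group. The part of these shifts in the results below was not tested, and in whole liver a smaller share of a cell type and less RNA per cell cannot be told apart.

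**Figure D1:**
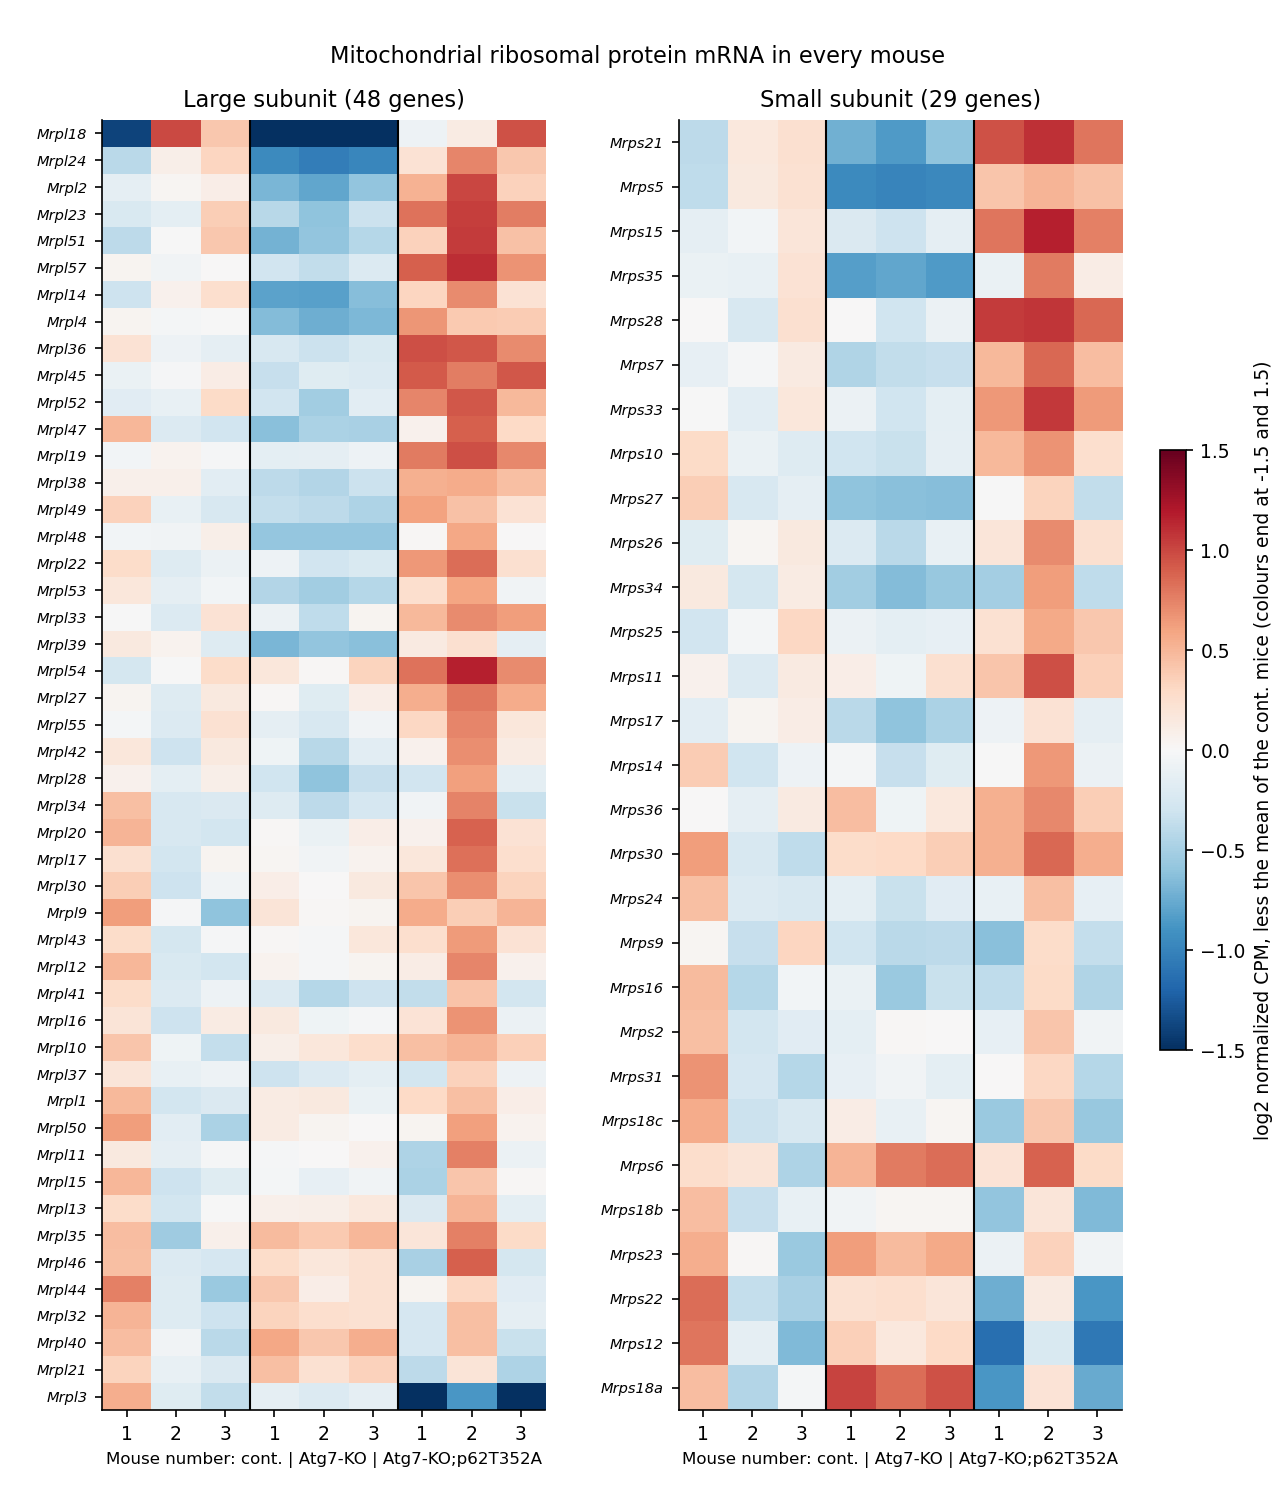
Heat maps of the 48 large-subunit (left) and 29 small-subunit genes (right) in 9 mice, as log2 normalized CPM less the mean of the cont. mice, with genes ordered by their change between Atg7-KO;p62T352A and Atg7-KO mice and colours ending at -1.5 and 1.5. The upper rows are higher in the 3 Atg7-KO;p62T352A mice than in the 3 Atg7-KO mice. Mrpl3, Mrps12 and Mrps18a at the bottom are lower in the Atg7-KO;p62T352A than in the Atg7-KO mice. Mouse 2 of the Atg7-KO;p62T352A group is the highest of its group for 71 of the 77 genes.

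In cont. livers, level was compared between genes only per length, as normalized CPM per kb of the longest coding transcript. On that scale Mrps21 was highest among small-subunit genes at 150 ± 32.9 (SD, n = 3), and Mrpl14 was highest among large-subunit genes at 135.6 ± 25.7. They were followed by Mrpl52 at 126 ± 22.9 and Mrpl18 at 117.4 ± 76.8, and the mean ± SD ranges of these 4 genes overlapped. The lowest levels were those of Mrpl47 (3.55 ± 1.13), Mrpl19 (3.83 ± 0.126) and Mrps26 (4.07 ± 0.463). The order depended on the transcript taken as the length, since with the median annotated length Mrpl18 came first and Mrps21 second.

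Summed over the family, large-subunit mRNA per kb was 1691 ± 70.9 in cont. mice, 1353 ± 81.7 in Atg7-KO mice and 2269 ± 357 in Atg7-KO;p62T352A mice (normalized CPM per kb, mean ± SD, n = 3). The small-subunit sum was 776 ± 80.1, 679 ± 33.6 and 1025 ± 193. For the large subunit the 3 ranges did not overlap. The small-subunit sums also did not overlap, but the lowest cont. mouse (701.0) and the highest Atg7-KO mouse (699.5) were nearly equal. This order depended on TMM. As a share of all counts the family held 0.236, 0.259 and 0.272% in cont. and 0.317, 0.305 and 0.33% in Atg7-KO mice. The share was 0.288, 0.369 and 0.322% in Atg7-KO;p62T352A mice, so on that scale the Atg7-KO mice were above the cont. mice.

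The ratio of the large-subunit to the small-subunit sum was 2.01, 2.30 and 2.27 in cont., 1.98, 1.97 and 2.02 in Atg7-KO and 2.20, 2.15 and 2.32 in Atg7-KO;p62T352A mice. All 3 Atg7-KO;p62T352A mice lay above the Atg7-KO mice, and the cont. mice overlapped both groups. Without Mrpl18 the ratio was 1.96, 2.03 and 2.10 in cont., 1.94, 1.93 and 1.98 in Atg7-KO and 2.10, 2.07 and 2.11 in Atg7-KO;p62T352A mice. The ratio ran from 1.97 to 2.32 over the 9 mice with Mrpl18 and from 1.93 to 2.11 without it.

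**Figure D2:**
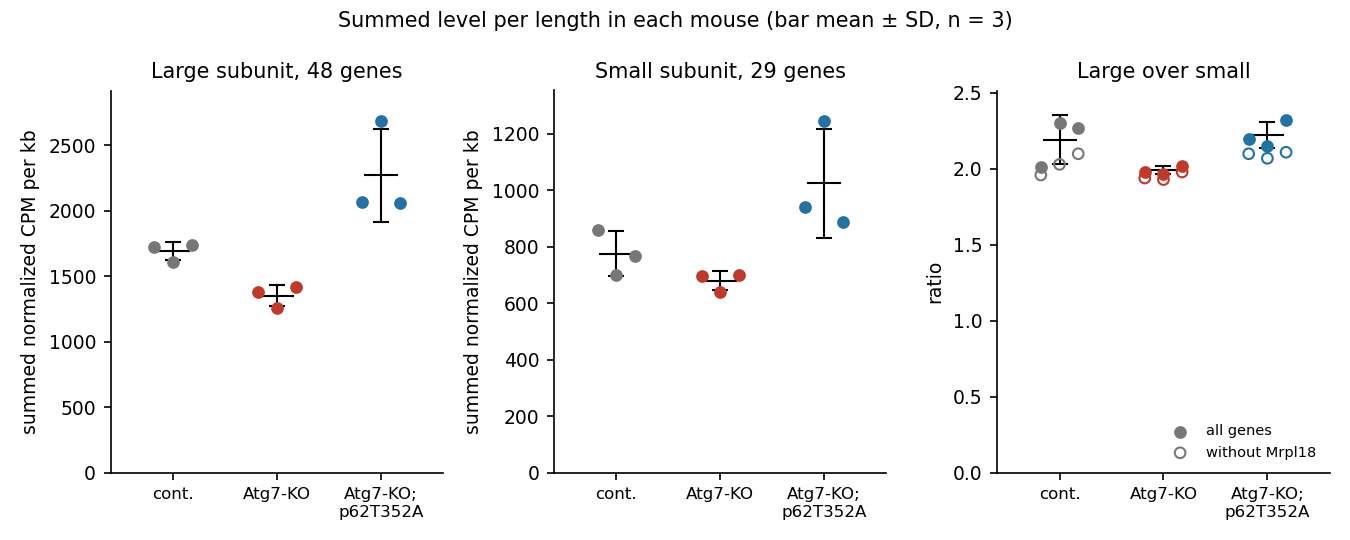
Summed normalized CPM per kb of the large-subunit and small-subunit genes and their ratio in each mouse (points), with mean ± SD of 3 mice (bars) and, in the ratio panel, open points without Mrpl18. With TMM scaling both sums are lowest in Atg7-KO and highest in Atg7-KO;p62T352A mice. The ratio stays between 1.97 and 2.32 with Mrpl18 and between 1.93 and 2.11 without it.

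The first comparison, Atg7-KO against cont., asked what loss of autophagy in hepatocytes did to these mRNAs. Few members changed: 10 of 77 (13.0%) were called lower against 22.1% of all tested genes, and 1 (1.3%) was called higher against 21.6%. The 10 were Mrpl2, Mrpl4, Mrpl14, Mrpl18, Mrpl24 and Mrpl39 of the large and Mrps5, Mrps21, Mrps27 and Mrps35 of the small subunit, and the 1 was Mrps18a. The median log2 fold change was -0.18 for the large and -0.20 for the small subunit, against -0.032 for all tested genes, and 55 of the 77 fitted values were below 0. All 3 Atg7-KO mice lay below all 3 cont. mice for 26 members (33.8%), against 26.3% of all tested genes, and above them for 2 (2.6%), against 29.2%. With library totals in place of TMM, the median of all tested genes moved to 0.55 and that of the members to 0.39. This scaling was tried after the data were seen. Under it 1 of 77 members was called lower, against 7.92% of all tested genes, and 20 of 77 higher, against 42.6%. The members' median was below that of all genes under both scalings, whereas the sign of their own median was not the same. Of the 10 lower calls, 4 held without any 1 of the 9 mice, and only that of Mrpl18 held under all 22 alternatives.

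Mrpl18, a protein of the large subunit's central protuberance (ENSMUSG00000057388, GRCm38 chr17:12911349-12916345, minus strand), had the largest fall. Its normalized CPM was 44.5, 230.6 and 154.3 in cont. mice and 30.2, 29.8 and 34.0 in Atg7-KO mice (log2 fold change -2.19 ± 0.51, FDR 0.00699). The 3 cont. mice were spread over a wide range, with mouse 1 close to the Atg7-KO mice, and the groups did not overlap. The call held in all 22 alternatives. Its exons overlap those of Tcp1, a cytosolic chaperonin subunit on the other strand, over 10.1% of their bases. Tcp1 was also called lower (-0.74 ± 0.17, FDR 0.00712).

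Mrpl24, near the tunnel through which the new peptide leaves, was at 59.0, 83.2 and 97.5 in cont. and at 40.5, 38 and 39.7 in Atg7-KO mice (-1.02 ± 0.22, FDR 0.00447). Its exons overlap those of Rrnad1 on the other strand over 26.3% of their length, and Rrnad1 was called lower too, by 2.09 ± 0.45 on the log2 scale, which the library kit, which does not mark strand, cannot keep apart there. Mrpl14, at the face that meets the small subunit, was at 69.8, 90.0 and 102.6 in cont. and at 49.7, 49.1 and 55.6 in Atg7-KO mice (-0.76 ± 0.20, FDR 0.0118). In both genes every Atg7-KO mouse was below every cont. mouse, and both calls were lost with library totals. The call of Mrpl14 was also lost with a correction for transcript length and without mouse 1 or mouse 2 of the Atg7-KO group.

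Of the small subunit, Mrps5, which lies where mRNA enters the ribosome, fell most. It was at 34.7, 49.9 and 52.9 normalized CPM in cont. and at 23.2, 22.6 and 23.0 in Atg7-KO mice (-1.00 ± 0.18, FDR 0.0019). Mrps35 was at 25.8, 25.6 and 32.1 in cont. and at 15.6, 16.1 and 15.4 in Atg7-KO mice (-0.82 ± 0.23, FDR 0.0162). The Atg7-KO values of both genes were nearly equal in the 3 mice, and neither overlapped the cont. values. Both calls were lost with library totals, and that of Mrps35 also without any 1 of the Atg7-KO mice.

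Mrps21 was at 54.8, 80.1 and 84.6 in cont. and at 43.7, 39.9 and 47.4 in Atg7-KO mice (-0.74 ± 0.20, FDR 0.0126), again without overlap, and this call was lost without Atg7-KO mouse 2, with the correction for transcript length and with library totals. Mrps18a went the other way, from 30.6, 16.4 and 21.7 to 44.9, 39.6 and 42.8 (0.89 ± 0.31, FDR 0.0409). It is one of 3 mammalian paralogs of a single bacterial protein and, despite its symbol, sits in the large subunit. The 3 Atg7-KO mice were above every cont. mouse, but the call held in only 13 of 22 alternatives and was lost without cont. mouse 2 or 3 or any Atg7-KO mouse.

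**Figure D3:**
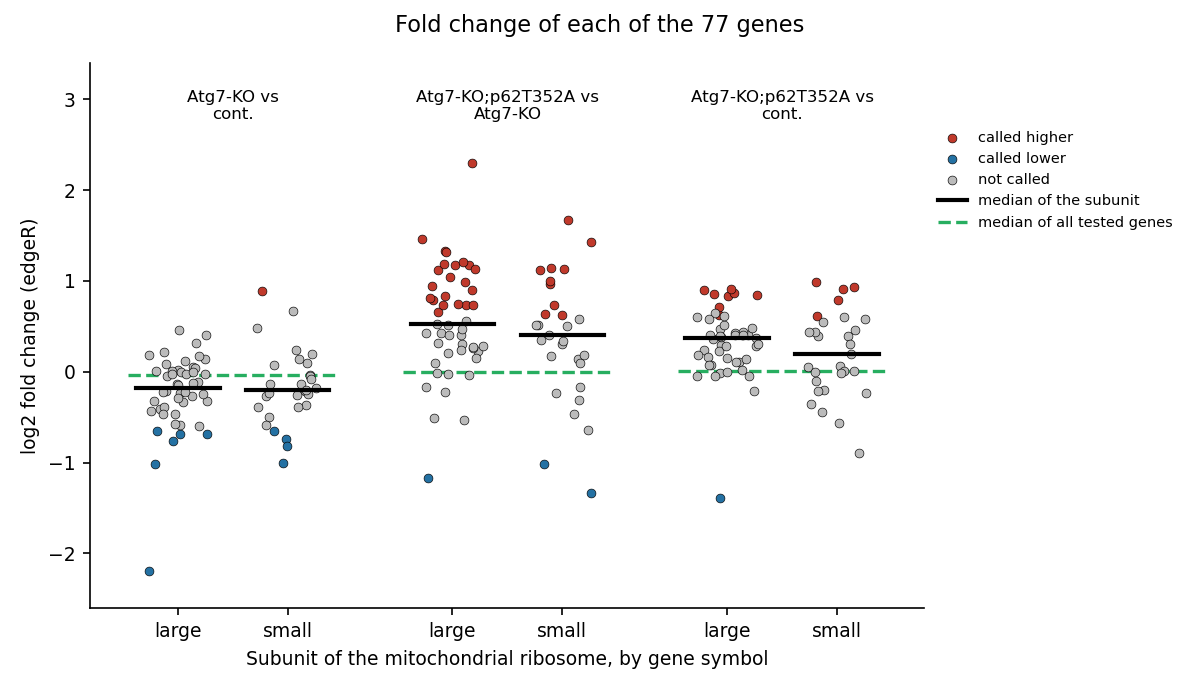
log2 fold change (edgeR) of each of the 77 genes by subunit in the 3 comparisons, coloured by call, with the median of the subunit (black line) and of all tested genes (dashed line). In the middle comparison 22 large-subunit and 10 small-subunit genes are called higher and 3 genes in all lower, and the subunit medians of 0.53 and 0.40 stand above the 0.0021 of all tested genes.

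The second comparison, Atg7-KO;p62T352A against Atg7-KO, set the p62 mutants beside Atg7-KO mice, from which they also differed in Atg7 mRNA. Here 32 of 77 members (41.6%) were called higher, against 24.7% of all tested genes, and 3 (3.9%) were called lower, against 26.2%. The large subunit had 22 of 48 called higher (45.8%) and the small subunit 10 of 29 (34.5%), with median log2 fold changes of 0.53 and 0.40 against 0.0021 for all tested genes. The 2 subunits' medians differed by 0.13, and the difference was -0.0055 when Mrps18a and Mrps30 were counted with the large subunit, where their proteins sit, and Mrps36 was left out. All 3 Atg7-KO;p62T352A mice were above all 3 Atg7-KO mice for 47 members (61.0%), against 36.4% of all tested genes, and below them for 6 (7.8%), against 36.8%.

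Of the 32 calls, 27 held without any 1 of the 9 mice, and 8 under all 22 alternatives (Mrpl2, Mrpl4, Mrpl18, Mrpl23, Mrpl24, Mrpl57, Mrps5 and Mrps21). Mouse 2 of the Atg7-KO;p62T352A group stood apart. It was the highest of its group for 71 of 77 members, against 34.4% of all tested genes. Without it 27 members were called higher and 5 lower. With library totals the median of all genes moved to -0.57 and that of the members to -0.083. Under that scaling 9 of 77 members were called higher, against 9.64% of all tested genes, and 14 of 77 lower, against 44.1%.

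Mrpl18 rose most, from 30.2, 29.8 and 34.0 in Atg7-KO to 110.2, 127.2 and 226.0 in Atg7-KO;p62T352A mice (2.30 ± 0.51, FDR 0.00454). Mrpl24 was at 91.1, 130.4 and 103.5 in Atg7-KO;p62T352A mice (1.46 ± 0.22, FDR 0.00058), and its neighbour Rrnad1 was again called in the same direction (2.47 ± 0.45, FDR 0.00169). Mrpl2, a protein next to the peptidyl transferase centre with no exon in common with another gene, went from 27.1, 25.5 and 29.1 to 62.6, 87.6 and 55.6 (1.33 ± 0.19, FDR 0.000505). No value of either group overlapped in the 3 genes, and in Mrpl24 and Mrpl2 mouse 2 was the highest. Tcp1, beside Mrpl18, was at 101.7, 81.4 and 101.5 in Atg7-KO mice and at 117.8, 142.3 and 119.3 in Atg7-KO;p62T352A mice and was not called (0.42 ± 0.17, FDR 0.0659).

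Of the small subunit, Mrps21 reached 139.5, 153.5 and 125.1 from 43.7, 39.9 and 47.4 (1.67 ± 0.20, FDR 0.000208). Mrps5 was at 60.2, 64.4 and 61.3 (1.43 ± 0.18, FDR 0.000259). Mrps15, which binds the small ribosomal RNA, went from 29.5, 27.7 and 31.4 to 59.9, 77 and 58.2 (1.14 ± 0.17, FDR 0.000585). The values of the 2 groups were far apart in all 3 genes, and Mrps5 varied little between mice of a group.

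The 3 called falls went against most of the family, in which 62 of 77 fitted values were above 0 and 15 below. Mrps18a was at 12.1, 25.6 and 13.1 in Atg7-KO;p62T352A mice, down from 44.9, 39.6 and 42.8 (-1.33 ± 0.32, FDR 0.00624). Mrpl3, a protein close to the peptidyl transferase centre, went from 17.7, 16.9 and 17.7 to 6.78, 10.6 and 5.87 (-1.17 ± 0.29, FDR 0.00717). Mrps12, which takes part in decoding, was at 34.5, 29.9 and 33.0 and then at 12.3, 22.9 and 12.8 (-1.02 ± 0.37, FDR 0.039). In each gene mouse 2 was the highest of the Atg7-KO;p62T352A group and still below every Atg7-KO mouse. The calls of Mrps18a and Mrpl3 held in all 22 alternatives, and that of Mrps12 was lost without cont. mouse 2, any Atg7-KO mouse or Atg7-KO;p62T352A mouse 1 or 3.

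**Figure D4:**
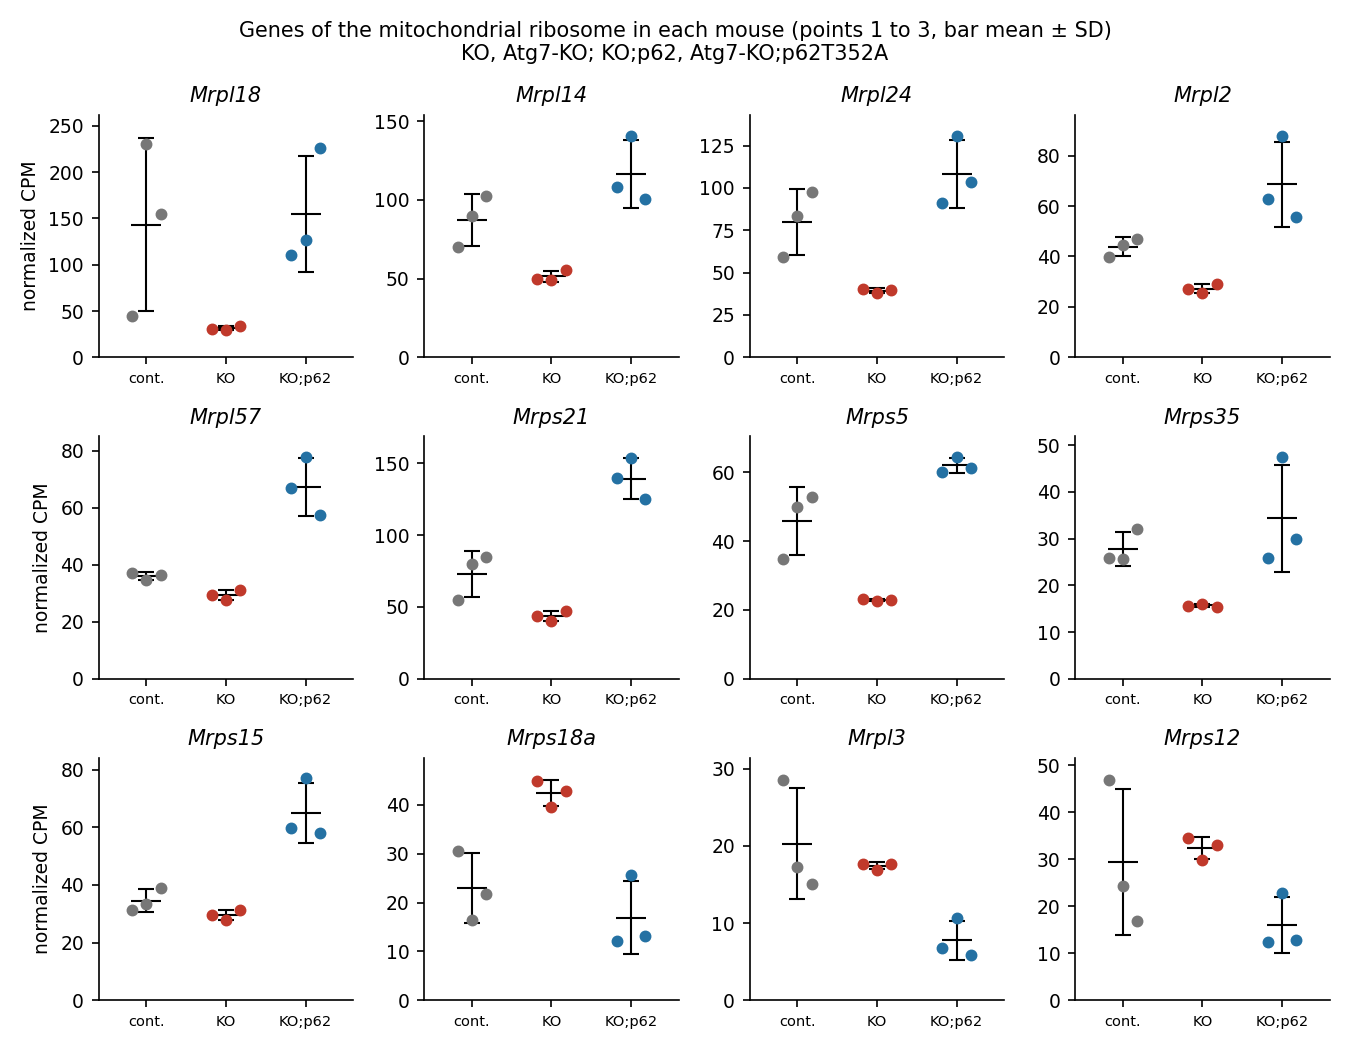
Normalized CPM of 12 genes in each mouse (points, mice 1 to 3 from left to right) with mean ± SD (bars), where KO is Atg7-KO and KO;p62 is Atg7-KO;p62T352A. The 9 panels from Mrpl18 to Mrps15 have their lowest mean in the Atg7-KO mice, Mrps18a has its highest there, and Mrpl3 and Mrps12 have their lowest in the Atg7-KO;p62T352A mice.

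Members of the family have short mRNAs, with a median longest coding transcript of 1316 bases against 3059 bases for all tested genes, and in this comparison short genes were higher throughout the table. Of genes under 1000 bases, 12 of 24 members (50.0%) and 44.9% of all 788 tested genes were called higher, with a median log2 fold change of 0.62 in both. Between 1000 and 2000 bases the shares were 34.5% of 29 members and 32.3% of all genes. At 2000 bases or more they were 41.7% of 24 members, with a median of 0.47, and 20.8% of all 10152 genes, with a median of -0.10. Up to 2000 bases the shares of members and of all genes lay close together, and above it they lay further apart. Whether they differed was not tested. With a gene-wise offset for transcript length, 24 of 77 members were called higher, against 24.7% of all genes. With it 10 of 77 were called lower, against 25.2%. The members' median fell to 0.13, against 0.011 for all genes. Under that offset the value of Mrpl54 changed sign, from 0.73 ± 0.20 to -0.045. Across genes, Spearman's rho between length and log2 fold change was -0.095 over the 77 members and -0.17 over 13815 tested genes with a known length, which share the same 6 libraries.

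**Figure D5:**
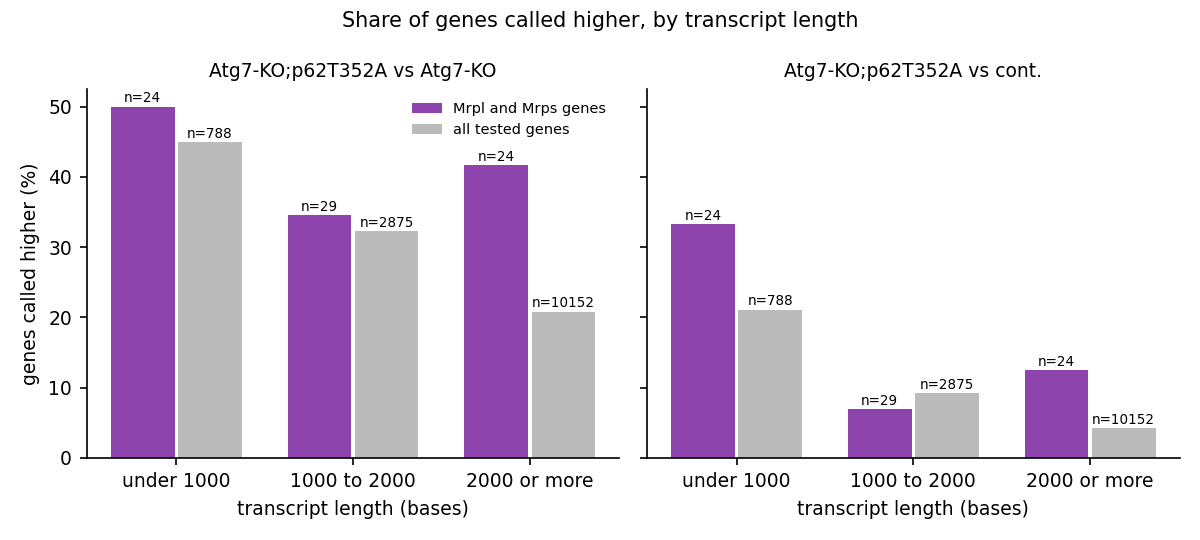
Percentage of genes called higher, in 3 classes of transcript length, among the 77 Mrpl and Mrps genes and among all tested genes, for Atg7-KO;p62T352A against Atg7-KO (left) and against cont. (right). On the left the members stand at 50.0, 34.5 and 41.7% and all tested genes at 44.9, 32.3 and 20.8%.

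Sequence upstream of the members was examined because 32 of 77 were called higher in Atg7-KO;p62T352A than in Atg7-KO mice. Whether members moved together was not tested. RefSeq promoter windows (GRCm38.p6, 250 bases before to 50 after the start) were matched by symbol for 68 of the 77 genes. They were searched on both strands for the letters of 4 motifs: GCGCA, any base and GCGC of nuclear respiratory factor NRF1, CCGGAAG of ETS factors, AAGATGGCG of YY1 and TGACNNNGC, the core of the antioxidant response element that NRF2 binds. The 150 bases upstream of the start are shown for the largest rise and the largest fall in each subunit whose window holds at most 30 exon bases, which passed over Mrpl18, Mrpl24, Mrps21 and Mrps5. Capitals mark a motif.
Mrpl2 (rose, chr17:46646071-46646220, plus strand): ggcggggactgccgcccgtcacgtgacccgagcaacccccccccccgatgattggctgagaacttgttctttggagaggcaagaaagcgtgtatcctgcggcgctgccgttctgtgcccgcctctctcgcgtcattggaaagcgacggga
Mrps15 (rose, chr4:126046778-126046927, plus strand): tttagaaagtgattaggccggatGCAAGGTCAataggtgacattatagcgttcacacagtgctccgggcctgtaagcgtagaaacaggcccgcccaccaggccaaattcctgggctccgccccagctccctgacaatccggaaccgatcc
Mrpl3 (fell, chr9:105053118-105053267, plus strand): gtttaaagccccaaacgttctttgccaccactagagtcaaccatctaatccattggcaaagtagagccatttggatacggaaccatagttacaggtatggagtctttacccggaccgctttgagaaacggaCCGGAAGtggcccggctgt
Mrps18a (fell, chr17:46110854-46111003, plus strand): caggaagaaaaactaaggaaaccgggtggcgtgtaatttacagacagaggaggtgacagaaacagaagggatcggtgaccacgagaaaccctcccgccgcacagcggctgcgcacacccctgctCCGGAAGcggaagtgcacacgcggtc

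The letters of the ETS motif stood in 25 of 68 member windows (36.8%), against 18.7% of 10542 tested genes and 9.93% of 27025 genes with a window. NRF1 letters were in 13 (19.1%, against 10.8% of tested genes), YY1 letters in 8 (11.8%, against 3.31%) and the antioxidant response element core in 13 (19.1%, against 17.0%). Among members called higher in Atg7-KO;p62T352A than in Atg7-KO mice, 13 of 26 windows (50.0%) held the ETS letters, and among members not called 9 of 39 (23.1%) did. The 3 that were called lower also held them. The share among all tested genes called higher was not counted, and whether the shares of members differed was not tested. The other motifs were in 6 (NRF1), 2 (YY1) and 6 (response element) of the 26 windows, and in 7, 5 and 7 of the 39. A match of letters is a description of the window and no evidence of binding.

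The third comparison, Atg7-KO;p62T352A against cont., asked how far the double mutants stood from control livers. It shares its mice with both comparisons above. In all, 13 of 77 members (16.9%) were called higher, against 6.25% of all tested genes, and 1 (1.3%) was called lower, against 5.34%. They were 8 of 48 large-subunit and 5 of 29 small-subunit genes, with median log2 fold changes of 0.38 and 0.19 against 0.0044 for all tested genes. The groups did not overlap for 21 members that were higher (27.3%), against 15.5% of all tested genes, and for 1 that was lower, against 11.2%.

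The count of 13 depended on single mice. It was 21 without cont. mouse 1, 6 without cont. mouse 2 and 8 without any 1 of the Atg7-KO mice. It was 8 without Atg7-KO;p62T352A mouse 1 and 6 without Atg7-KO;p62T352A mouse 2 or 3. With the offset for transcript length it was 3 of 77, against 3.78% of all genes then. Mrpl19, Mrpl45 and Mrpl57 were called higher in all 22 alternatives, although exons of Mrpl19 overlap those of Gcfc2. Among genes under 1000 bases 8 of 24 members (33.3%) were called higher, against 21.1% of all tested genes, between 1000 and 2000 bases 2 of 29 (6.9%), against 9.18%, and at 2000 bases or more 3 of 24 (12.5%), against 4.22%.

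Mrpl57 was at 37.1, 34.5 and 36.2 normalized CPM in cont. and at 67.0, 77.7 and 57.4 in Atg7-KO;p62T352A mice (0.91 ± 0.16, FDR 0.0105). Mrpl45, which anchors the ribosome at the inner membrane, was at 30.4, 32.1 and 35.2 and then at 61.3, 55.3 and 62 (0.87 ± 0.15, FDR 0.00958). Mrpl54 was at 22.6, 26.9 and 32.8 and then at 47.6, 60.9 and 44.3 (0.90 ± 0.20, FDR 0.0222), a call lost with the length offset and without cont. mouse 2 or Atg7-KO;p62T352A mouse 2 or 3. The 3 genes had no overlap between groups, and in Atg7-KO mice Mrpl57 and Mrpl45 were a little below cont. (29.5, 27.7 and 31.1, and 25.5, 28.7 and 28.1) without a call.

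Of the small subunit, Mrps28 was at 22.3, 18.8 and 26.2 in cont. and at 46.1, 46.9 and 40.3 in Atg7-KO;p62T352A mice (0.99 ± 0.18, FDR 0.0108). Mrps21 (0.93 ± 0.20, FDR 0.0196) and Mrps15 (0.91 ± 0.17, FDR 0.0126) were also called higher, from the values given above. Mrps21 was the 1 gene below cont. in the first comparison and above cont. in the third by these calls, and its last call was lost without any 1 of the Atg7-KO;p62T352A mice. Mrpl3 was the 1 member called lower, at 28.5, 17.2 and 15.1 in cont. and 6.78, 10.6 and 5.87 in Atg7-KO;p62T352A mice (-1.39 ± 0.29, FDR 0.0175). That call was lost without Atg7-KO;p62T352A mouse 1 or 3.

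Across the 3 comparisons the family fell into a few patterns. Of the 10 members called lower in Atg7-KO mice, 9 were called higher in Atg7-KO;p62T352A than in Atg7-KO mice and not called against cont. (11.7% of the family, against 15.8% of all tested genes), namely Mrpl2, Mrpl4, Mrpl14, Mrpl18, Mrpl24, Mrpl39, Mrps5, Mrps27 and Mrps35. The first and second comparisons share the Atg7-KO mice, which enter with opposite sign, so opposite calls are in part built in. A further 12 (15.6%, against 2.28% of all tested genes) were called higher in Atg7-KO;p62T352A mice against both other groups, which share those mice, and not called in the first comparison. They were Mrpl19, Mrpl23, Mrpl27, Mrpl36, Mrpl45, Mrpl52, Mrpl54, Mrpl57, Mrps7, Mrps15, Mrps28 and Mrps33. Their calls against cont. were of unequal stability. Those of Mrps7, Mrpl52, Mrpl27, Mrps33 and Mrpl23 held in 4, 5, 7, 12 and 13 of 22 alternatives. With the offset for transcript length only Mrpl19, Mrpl45 and Mrpl57 of the 12 kept the call against cont. The 2.28% covers tested genes of every length. Another 10 (13.0%, against 5.55%) were called higher only against Atg7-KO mice. In 42 of the 77 (54.5%, against 38.7%) no comparison gave a call.

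Proteins of the stalk, where translation factors bind, were in this last group. Mrpl12, which also binds the mitochondrial RNA polymerase, was at 114.0, 69.0 and 66.5 in cont., 83.3, 79.6 and 82.8 in Atg7-KO and 87.3, 133.5 and 84.4 in Atg7-KO;p62T352A mice, so that the first pair of groups overlapped and the last pair was separated by a narrow gap. Its stalk partners Mrpl10 and Mrpl11 had log2 fold changes of 0.14 ± 0.20 and 0.01 ± 0.28 in the first comparison and of 0.26 ± 0.20 and 0.15 ± 0.27 in the second. Mrpl44, which has a ribonuclease III fold, was at 0.12 ± 0.31 and -0.17 ± 0.31 in these comparisons, and none of these 4 genes was called.

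The paralogs of Mrps18a did not share its calls. Mrps18b had log2 fold changes of -0.038 ± 0.27 in the first comparison and -0.31 ± 0.27 in the second, and Mrps18c had -0.051 ± 0.31 and -0.17 ± 0.31. Whether the paralogs differed from each other was not tested. Mrps30, whose protein sits in the large subunit, was at 0.24 ± 0.26 and 0.34 ± 0.25. Mrps36, now known as a subunit of the 2-oxoglutarate dehydrogenase complex, was at 0.20 ± 0.18 and 0.35 ± 0.18.

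Among small-subunit proteins in which mutations cause mitochondrial disease, Mrps7 was called higher in Atg7-KO;p62T352A than in Atg7-KO mice (1.00 ± 0.17, FDR 0.00107), with 53.2, 56.2 and 57.4 against 101.7, 131.9 and 100.2 normalized CPM. It was called higher against cont. too (0.61 ± 0.17, FDR 0.0442), a call that held in 4 of 22 alternatives. Mrps2 (0.14 ± 0.23), Mrps16 (0.17 ± 0.28), Mrps22 (-0.64 ± 0.37) and Mrps34 (0.58 ± 0.29) were not called there. Mrps34 shares 69.4% of its 75-base stretches with Nme3, an overlapping gene on the same strand that was called in both comparisons (-0.94 ± 0.18 and 1.31 ± 0.18), so its value is uncertain. Mrps27, which has repeats of the kind that bind RNA, was called lower in Atg7-KO (-0.65 ± 0.22, FDR 0.0385) and higher in Atg7-KO;p62T352A mice (0.64 ± 0.22, FDR 0.035), and these calls held in 11 and 9 of 22 alternatives.

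Subunits of the same ribosome that carry other names were read beside the family. Gadd45gip1, a large-subunit protein at the tunnel exit, was at 59.2, 79.9 and 87.3 in cont., 46.6, 42.8 and 52.0 in Atg7-KO and 178.2, 189.8 and 160.5 in Atg7-KO;p62T352A mice. It was called in all 3 comparisons (-0.68 ± 0.19, FDR 0.0153, then 1.90 ± 0.19, FDR 9.7e-05, and 1.22 ± 0.19 against cont., FDR 0.00811). Dap3, a GTP-binding small-subunit protein, was called lower in Atg7-KO (-0.67 ± 0.18, FDR 0.0149) and higher in Atg7-KO;p62T352A mice (0.65 ± 0.18, FDR 0.0147). Aurkaip1 (1.16 ± 0.16, FDR 0.00034) and Ict1, a peptidyl-tRNA hydrolase built into the large subunit (1.01 ± 0.22, FDR 0.0036), were called higher in the second comparison, and Aurkaip1 also against cont. (0.73 ± 0.15, FDR 0.019). Chchd1 (-0.23 ± 0.37) and Ptcd3 (0.38 ± 0.15, FDR 0.0525) were not called in it. In total 2 of 6 were called lower in the first comparison, against 22.1% of all tested genes, and 4 of 6 higher in the second, against 24.7%.

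Other lists of mitochondrial genes are given beside the 22.1% of all tested genes called lower in Atg7-KO against cont. mice. Of 12 genes for mitochondrial transcription and DNA replication, 10 were called lower (83.3%, median log2 fold change -0.92), including the DNA polymerase subunit Polg2 (-1.78 ± 0.25, FDR 0.000514). Of 17 mitochondrial aminoacyl-tRNA synthetases 7 were called lower (41.2%, median -0.45), and of 36 respiratory complex I subunits 21 were (58.3%, -0.69). The 7 of 26 genes for assembly and rRNA modification (26.9%, -0.25) and the 4 of 16 translation factors (25%, -0.33) were near the share of all genes. All of these medians were below the -0.20 of the family, and the differences were not tested. Among translation factors, Mtif2, the initiation factor, was at -1.31 ± 0.19 (FDR 0.0006).

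In Atg7-KO;p62T352A against Atg7-KO mice, 8 of 12 transcription and replication genes (66.7%, median 0.96) and 6 of 17 synthetases (35.3%, 0.26) were called higher. So were 11 of 26 assembly genes (42.3%, 0.39), 6 of 16 translation factors (37.5%, 0.36) and 28 of 36 complex I subunits (77.8%, 1.23). Of all tested genes 24.7% were called higher, and the family had a median of 0.50. Mtif2 was called higher there (1.70 ± 0.19, FDR 0.000149). Against cont. mice, 7 of 36 complex I subunits (19.4%) and 1 of the 26 assembly genes (3.85%) were called higher, against 6.25% of all tested genes. These shares of all tested genes cover every transcript length, and the lengths in these lists were not compared. Of tested genes under 1000 bases, 44.9% were called higher against Atg7-KO mice and 21.1% against cont. mice.

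Of 10 nuclear regulators of mitochondrial genes, 3 were called lower and 1 higher in Atg7-KO mice, against 22.1% and 21.6% of all tested genes. In the second comparison 5 were called higher and 1 lower, against 24.7% and 26.2%. The coactivator Ppargc1b had the largest change in both (-3.58 ± 0.73, FDR 0.0036, and 2.93 ± 0.71, FDR 0.00708), and Myc was the 1 that went the other way (1.61 ± 0.54, FDR 0.0345, and -1.71 ± 0.54, FDR 0.0227). Gabpa, an ETS factor, was called lower in Atg7-KO;p62T352A than in cont. mice (-0.99 ± 0.24, FDR 0.0315).

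Cytosolic ribosomal proteins, the counterparts of the family outside the mitochondrion, had a median log2 fold change of 0.19 in Atg7-KO against cont., where 4 of 76 were called higher (5.26%, against 21.6% of all tested genes). In Atg7-KO;p62T352A mice 22 of 76 were called higher (28.9%, against 24.7%) and 4 lower (5.26%, against 26.2%) than in Atg7-KO mice (median 0.27), and 19 were called higher than in cont. mice (25%, against 6.25%, median 0.44). Transcript length was not compared for the cytosolic list either, and the shares of all tested genes beside it cover every length. Mitochondrially encoded RNAs were not analysed here.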

How the data were processed

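Whole-liver RNA of 9 mice was read from 1 gene table. Values are expected counts, which the authors deposited without normalization. The submitters' processing notes name Trim Galore, STAR, RSEM and mm10, with versions, annotation and strand setting not given in the sources used here. Reads were 75 bases from 1 end. The kit does not mark strand, so overlapping genes on opposite strands share reads, and RSEM divides reads between near-identical sequences. Of the 77 genes 32 overlap exons of another gene, and 7 share over 20% of their 75-base stretches.

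Expected counts were rounded and fitted with edgeR 4.0.16 in R 4.3.3 (filterByExpr, TMM, quasi-likelihood test), with 9 mice in 1 fit and Benjamini-Hochberg adjustment over 13922 genes. Tables were made in Python 3.11.15. Groups came from the sample labels. Mice were not treated as paired by replicate number. Replicates differed by 13.3 to 305 times counting noise (chi-square per degree of freedom), so no library was a repeat of another. Data were simulated for Atg7-KO against cont. over 13922 genes, with a dispersion of 0.08 for every gene. Of 200 genes changed 4-fold 98.5% were recovered, and 11 of 13491 unchanged genes were called. Smaller changes, the size of most reported here, were not simulated.

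Genes were named by 1 rule: per comparison and subunit, the 3 called members with the largest rise and fall, the highest level per length, a set with known roles, and at most 2 called genes of each other list. Genes that overlap a named member, and members listed by pattern or stability, were named after their values were seen. Members and lists were chosen with earlier results of these data known. Lengths and GC content came from GENCODE, matched by symbol for 23376 of 24411 genes and by synonym for 661. Alternatives were DESeq2 1.42.0, other scalings and filters, offsets for length, a replicate block, subunits by structure and each mouse left out. Library totals, GC offsets and the ratio without Mrpl18 were added after the data were seen.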

Additional observations from a re-analysis of the deposited data

How the results depend on the processing

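Of 1917 values of named genes under alternatives, 1675 kept their call or, where not called, stayed so and moved by less than the SE. Another 105 without a call moved further or were called in the other direction, 108 lost the call and 27 gained it. Changes of sign were counted only for values called in the main fit. The 2 found were Mrpl54 in Atg7-KO;p62T352A against Atg7-KO mice, at -0.045 with the length offset and -0.042 with length offset and replicate block.

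Members called lower in Atg7-KO against cont. were 10, beside 22.1% of all tested genes. They were 6 with upper-quartile scaling (18.5% of all tested genes) and 1 with library totals (7.92%). With 1 mouse left out they were 5 to 13, with 6 without Atg7-KO mouse 1 (15.5%) and 5 without Atg7-KO mouse 2 (15.4%). For the members called higher, the share of all tested genes was 21.6%, with 42.6% under library totals and 28% without cont. mouse 1. Members called higher were 1, and 2 with upper-quartile scaling, at least 10 counts in every mouse, the length offset, or length offset and block, 20 with library totals, 5 with mice 2 and 3 only and 0 to 7 with 1 mouse left out (7 without cont. mouse 1, and 0 by edgeR without cont. mouse 2 or 3 or any Atg7-KO mouse, with 0 to 2 at an unadjusted p under 0.05). The edgeR count was 0 with DESeq2 size factors, the replicate block, the GC offset, or GC offset and block, where 2 members were higher at an unadjusted p under 0.05, and DESeq2 called 1.

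In Atg7-KO;p62T352A against Atg7-KO mice, the 3 called lower became 14 with library totals, 10 with the length offset, alone or with the block, and 2 to 5 with 1 mouse left out (5 without Atg7-KO;p62T352A mouse 2). The 32 called higher became 9 with library totals and 27 to 34 with 1 mouse left out. With library totals 44.1% of all tested genes were called lower and 9.64% higher. With the length offset alone 25.2% were called lower.

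Against cont., the 1 called lower became 2 with the length offset, 0 by edgeR with length offset and block, where 8 were lower at an unadjusted p under 0.05, and 0 to 1 with 1 mouse left out (0 by edgeR without Atg7-KO;p62T352A mouse 1 or 3, with 1 at an unadjusted p under 0.05). The 13 called higher became 3 with the length offset, alone or with the block, 8 with GC offset and block, 20 with mice 2 and 3 only and 6 to 21 with 1 mouse left out. 

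The median of the large less that of the small subunit was 0.013, 0.13 and 0.18 in the 3 comparisons in order. In the first it was 0.066 with the length offset, 0.06 with length offset and block, 0.067 with the GC offset, 0.068 with subunits by structure and -0.026 to 0.053 with 1 mouse left out. In the second it was -0.028 with the length offset, -0.054 with length offset and block, 0.12 with the block alone, 0.068 with mice 2 and 3 only and -0.0055 by structure. In the third it was 0.03 with the length offset, 0.031 with length offset and block, 0.015 with the GC offset, 0.051 with GC offset and block, 0.25 by structure and 0.096 to 0.26 with 1 mouse left out. With the replicate block alone, 10 members were called lower in the first comparison, 32 higher in the second and 9 higher in the third. Nothing in the labels ties mice of a number together, and for that reason the samples were not treated as paired. Deviations from the group mean correlated at 0.137 to 0.271 between mice numbered 1 and at 0.181 to 0.321 between mice numbered 3. Between mice numbered 2 they correlated at -0.202 to 0.0926. The mean was 0.146 over 9 pairs of equal number and -0.0705 over 18 pairs of different numbers. Deviations within a group sum to 0, so these means are not independent. Whether mice of a number shared a batch was not tested.

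The cause of these changes was not tested. With 3 mice a group, 1 mouse can decide a call. The lowest count of a member in a mouse was 67.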
